A study of Mus musculus with 3 samples.

Results

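The endothelial cells that line the capillaries and small arteries of an injured mouse muscle holding a polymer implant are described here, from 299 cell barcodes of 19707 in 3 single-cell RNA libraries. A barcode was taken when it had at least 1000 UMIs (unique molecular identifiers, each standing for 1 captured RNA molecule), under 20% mitochondrial UMIs, at least 1 UMI of Cdh5 and at least 3 of Cdh5, Pecam1 and Ptprb together, with no Ptprc or Pdgfra, at most 1 UMI of Prox1 and Mmrn1, and none of Ackr1 and Selp. The cells were thus chosen by the measured counts of these 9 genes, whose levels are therefore no result. The 299 cells were 120, 87 and 92 in replicates 1, 2 and 3, out of 6068, 8643 and 4996 barcodes.

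Blood vessels are lined by endothelial cells that differ along the vessel. Capillary cells of muscle pass fatty acids to the fibres, with GPIHBP1 holding lipoprotein lipase at the vessel wall, CD36 taking up fatty acids and FABP4 carrying them in the cytosol. Arterial cells carry Notch ligands and gap junction proteins, while venules carry the selectins and adhesion molecules through which leukocytes leave the blood, and sprouting tip cells express apelin, Esm1 and Angpt2.

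All 3 libraries came from C57BL/6 WT (wild-type) mice in which a hindlimb defect of volumetric muscle loss (a piece of muscle too large to regrow) held PCL particulate, particles of the degradable polyester polycaprolactone, for 6 weeks. The quadriceps with its fibrotic implant was dissociated, magnetic beads removed the dead cells, and CD45+ and CD45- fractions were separated and remixed in equal numbers, so the share of any cell type among all barcodes was set in part by that mixing. The samples analysed here hold no uninjured or implant-free group, and the labels do not say whether the replicates are separate mice. The comparisons are therefore between cells of the same libraries. Every p-value of the main tests rests on how these within-library differences varied over the 3 libraries, a spread that may be technical.

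The gated cells had a median of 12296, 11630 and 11209 UMIs in replicates 1, 2 and 3, and 4615709 UMIs in all. They were set against a venular gate (the same rule with at least 2 UMIs of Ackr1 and Selp, 338 cells, median 13350.5 UMIs), a lymphatic gate (at least 2 UMIs of Prox1 and Mmrn1, 220 cells, median 16706.5 UMIs) and the other 17492 filtered barcodes (median 20925.5 UMIs). Libraries shared 13, 13 and 10 barcodes, and no gated cell was among them. Pericytes and smooth muscle cells sit against the vessel wall, and 54 of the 299 cells gave at least 0.2% of their UMIs to 8 mural genes (Rgs5, Pdgfrb, Notch3, Kcnj8, Abcc9, Cspg4, Myh11, Acta2), while 14 gave at least 0.5% to 7 fibroblast genes. Together these mixed cells were 66 of the 299 gated cells (22.1%), against 9 of 338 venular cells (2.66%) and 8 of 220 lymphatic cells (3.64%). Counts over all genes are therefore also given without the mixed cells of the endothelial gates, a comparison added after the data were seen, and counts over gene lists where leaving them out changed them.

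The label was checked against its 5 markers. Cdh5 (VE-cadherin) stood at 1259, 1190.0 and 1091 CPM (UMIs of the gene per 1000000 UMIs of the summed cells) in the gated cells of the 3 libraries, and Pecam1 at 1530.0, 1431 and 1234 CPM, both high by the choice of cells. Fabp4 had a UMI in 284 of the 299 cells, against 14.6% of 4090 Ptprc-positive cells with macrophage genes (at least 3 UMIs of Csf1r, Cd68 and Adgre1), which had a median of 16092.5 UMIs. Macrophages can express Fabp4 as well, so that share is no clean background for it. Cd300lg, a capillary and venular surface glycoprotein, had a UMI in 57.2% of gated cells, against 7.41% of those macrophage-gate cells. Aplnr, the apelin receptor, was found in 50.5% of gated cells and 0.929% of the macrophage-gate cells. All 5 markers were thus present, Cd300lg and Aplnr above that background. Fabp4, Cd300lg and Aplnr were not called between gated and venular cells, however: Fabp4 averaged 4129 ± 1301 CPM in the gated cells and 4456 ± 875 CPM in venular cells (SD, n = 3 libraries each, as throughout), Cd300lg 198 ± 36.7 and 162 ± 6.08 CPM, and Aplnr 351 ± 39.3 and 482 ± 52.3 CPM.

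Some gated cells went against the label. Clustering the 299 cells without the 9 rule genes gave 10 clusters, and 8 cells formed a cluster led by Igfbp6, Sfrp5, Tenm2 and Dcn (11460 CPM of this matrix proteoglycan) in which Pecam1 and Ptprb were both at 0 CPM and Fabp4 at 9.75 CPM. These 8 cells had between 3 and 8 UMIs of the 3 endothelial rule genes, with Cdh5 at 419 CPM. They came from all 3 libraries (2, 2 and 4 cells), held every Sfrp5, Cldn1 and Tenm2 UMI of the gated cells, and all 8 were counted among the mixed cells. At the lower edge of the rule, the 11 cells with exactly 3 UMIs of Cdh5, Pecam1 and Ptprb had Flt1 at 95.8 CPM and Col1a1 at 3298 CPM, while the 16 barcodes just outside, with 2 UMIs, had Flt1 at 78.6 CPM and Col1a1 at 3064 CPM. Over all 299 cells Flt1 stood at 1789 CPM and Col1a1 at 229.4 CPM. At the venular edge, the 32 barcodes with 1 UMI of Ackr1 and Selp, just outside, had Sema3g at 65.5 CPM and Lrg1 at 472.6 CPM, set beside 245.0 and 235.9 CPM over all gated cells. The 6 gated cells with 1 UMI of Prox1 and Mmrn1 had no Ccl21a UMI and Flt1 at 3407 CPM.

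The gated cells were 2.13%, 1.07% and 2.01% of the filtered barcodes in replicates 1, 2 and 3 (mean 1.74% ± 0.581, SD, n = 3). Among the 857 barcodes of the 3 endothelial gates, they were 38.2% in replicate 1 (95% Wilson interval 33.0 to 43.7%), 27.2% in replicate 2 (22.6 to 32.3%) and 41.3% in replicate 3 (35.0 to 47.8%). Replicate 2 was lowest, with an interval below those of the other libraries. Lymphatic cells took 32.2% of its endothelial barcodes, with 20.7% and 23.3% in replicates 1 and 3, and venular cells 40.6%, with 41.1% and 35.4% in replicates 1 and 3. These intervals cover counting error only.

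**Figure D1:**
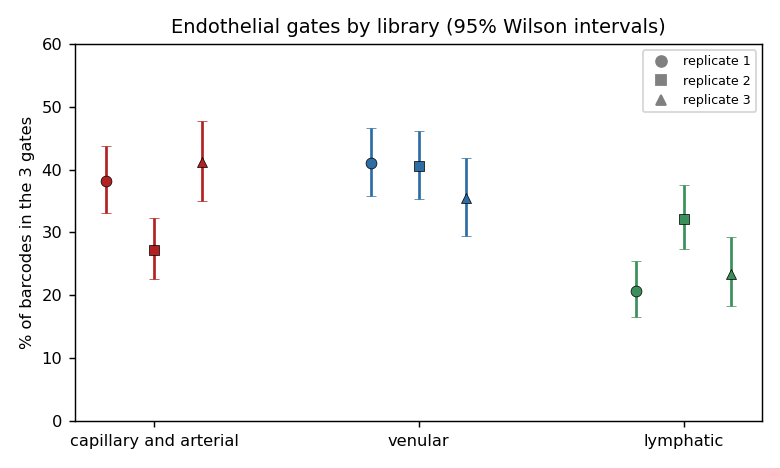
Share of each endothelial gate among the barcodes of the 3 gates, in percent, for replicates 1, 2 and 3, with 95% Wilson intervals as bars. The capillary and arterial gate took 38.2%, 27.2% and 41.3%, lowest in replicate 2, where the lymphatic gate was highest at 32.2%.

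Several capillary and lipid genes differed between the libraries. Timp4, a tissue inhibitor of metalloproteinases, had 195, 4.02 and 171 CPM in the gated cells of replicates 1, 2 and 3, and Car4, the membrane carbonic anhydrase of muscle capillaries, had 41.8, 0 and 38.8 CPM. Lpl, the lipoprotein lipase itself, stood at 298, 12.1 and 155 CPM. Replicate 2 was lowest for these 3 genes by a wide margin, and it held no Car4 UMI among its 1493653, where a count of 0 allows up to 3. The same library was lowest for Tcf15, a transcription factor of fatty acid transport in muscle endothelium, with 175, 42.2 and 199.9 CPM. Cd36 had 1601, 468 and 1184 CPM and Aqp7, a glycerol channel, had 84.1, 11.4 and 81.9 CPM. Fabp4 (4425, 2705 and 5256 CPM) and Gpihbp1 (339, 227 and 331 CPM) were lower in replicate 2 by less, and Rgcc, a cell cycle regulator of endothelium, was nearly level at 426, 425 and 388 CPM. Aplnr went the other way, with 343, 394 and 317 CPM and its highest value in replicate 2. Muscle RNA was also lowest in replicate 2: the 6 muscle markers summed to 89.7, 13.4 and 39.6 CPM in the gated cells, and Acta1 among them stood at 154, 48.3 and 152 CPM in the other barcodes. Its part in the difference between libraries was not tested. With 1 group of 3 libraries no test of that difference is possible, and summed levels alone do not tell fewer cells with a gene from less RNA per cell.

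Cells with a Timp4 UMI numbered 46, 5 and 31 in the 3 libraries, and those with a Lpl UMI 58, 10 and 47. Those with a Car4 UMI numbered 23, 0 and 18, out of 120, 87 and 92 gated cells. For these 3 genes replicate 2 thus had fewer cells with a UMI, and RNA per such cell was not tested. The highest levels lay in a single cluster of 52 cells, 28 from replicate 1, 1 from replicate 2 and 23 from replicate 3, in which Timp4 stood at 829.9, Lpl at 983, Car4 at 221, Aqp1 at 4977 and Fabp4 at 9699 CPM. All 10 genes of the capillary list had a UMI in at least 25% of its cells and summed to 17530 CPM, so it is called capillary-like. In other clusters up to 9 of those genes reached that share, and their sum was at most 11800 CPM. Of the 52 cells of the capillary-like cluster, 7 were mixed and 6 were in the arterial gate. Plvap, the diaphragm protein of fenestrated capillaries and venules, was at 0 CPM there, while it stood at 1486 CPM in a cluster of 38 cells led by Gse1 and at 1365 CPM in the cluster led by Angpt2.

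**Figure D2:**
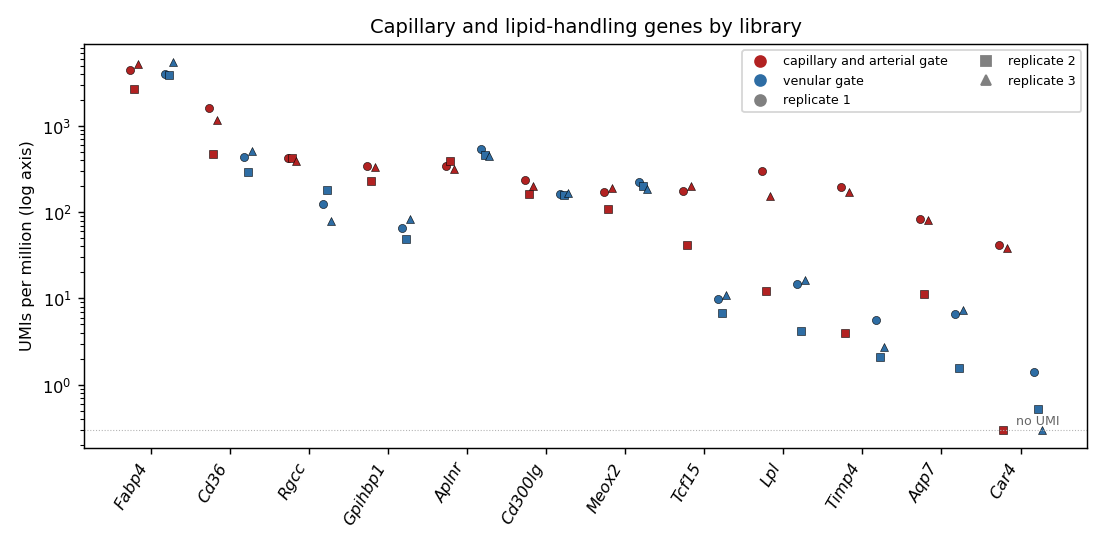
CPM (log axis) of 12 capillary and lipid-handling genes in the summed cells of each library, for the capillary and arterial gate (left of each pair) and the venular gate, with 1 symbol per replicate and a library without a UMI drawn on the dotted line. In the capillary and arterial gate replicate 2 lies below the others for Timp4 (195, 4.02 and 171 CPM in replicates 1, 2 and 3), Lpl and Car4, while Rgcc stays between 387.8 and 425.7 CPM.

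Set against venular cells of the same libraries, the gated cells had 822 genes called higher and 351 called lower of 10600 tested, where a call needs an adjusted p under 0.05 and a log2 difference of at least 1 in size (edgeR's quasi-likelihood test with the library as block). Genes called higher were thus 7.75% of those tested and genes called lower 3.31%. Without the mixed cells the higher calls numbered 392 and the lower calls 328 of 9751 (4.02% and 3.36%), and 622 of the calls made with all cells were kept. The share of higher among all calls was 70.1% with the mixed cells and 54.4% without them.

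Capillary genes were higher in the gated cells than in venular cells for 6 of 10 list members, beside 7.75% of all genes. None was lower, and the count was the same without mixed cells. Gpihbp1 averaged 299 ± 62.5 CPM in gated cells, against 66.4 ± 17.7 CPM in venular cells, a log2 difference of 2.10 ± 0.13 (SE, adjusted p = 7.28e-06). Rgcc averaged 413 ± 21.5 CPM in gated and 128 ± 51.6 CPM in venular cells (log2 1.63 ± 0.18, adjusted p = 0.000154). For Tcf15, at 175, 42.2 and 199.9 CPM in gated cells and 9.88, 6.75 and 10.98 CPM in venular cells (log2 3.71 ± 0.25, adjusted p = 1.14e-05), the groups did not overlap even with replicate 2. For Timp4 the log2 difference was 4.84 ± 0.41 (5.90 without mixed cells), with 195, 4.02 and 171 CPM in gated cells and 5.65, 2.08 and 2.74 CPM in venular cells, so the low value of replicate 2 fell within the venular range. Car4 was higher in 2 of 3 libraries and passed with edgeR (log2 4.81, adjusted p = 0.000620) and not with DESeq2 (adjusted p = 0.265), and Cd36 no longer reached a log2 of 1 without replicate 1 (log2 0.84). Meox2, the partner of Tcf15, was not called, at 157 ± 42.3 CPM in gated and 204 ± 20.2 CPM in venular cells.

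The lipid-handling list of 18 genes, which overlaps the capillary list, had 5 genes called higher and 1 lower of 17 tested. Over all genes tested, 7.75% were called higher and 3.31% lower. Lpl averaged 155 ± 143 CPM in gated cells, against 11.7 ± 6.63 CPM in venular cells (log2 3.59 ± 0.33, or 2.68 without replicate 1). Aqp7 averaged 59.1 ± 41.4 CPM in gated and 5.15 ± 3.14 CPM in venular cells (log2 3.40 ± 0.24). Aqp1, a water channel, was the lower one, with 1166, 385 and 1113 CPM in gated cells and 1885, 1745 and 2082 CPM in venular cells. Its groups did not overlap, yet without replicate 2 its log2 difference was -0.89 and the call was lost. Fabp5, Pparg and Scarb1 were among the 11 lipid genes that were not called.

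Arterial genes were higher in the gated cells for 13 of 14 list members, beside 7.75% of all genes, and none was lower. The list median was a log2 difference of 3.16, beside a median of 0.00 over all genes tested, and without mixed cells 13 were again called. Sema3g, a guidance ligand of arterial endothelium, had 265, 229.6 and 232 CPM in gated cells, against 5.18, 3.12 and 1.83 CPM in venular cells (log2 5.94 ± 0.21, adjusted p = 5.15e-07, or log2 4.73 when venular cells were taken from 1 UMI of Ackr1 and Selp on). Gja4 (connexin 37) had 141, 119 and 128 CPM in gated cells, against 0, 6.75 and 0 CPM in venular cells, and its log2 difference of 5.57 became 10.72 without replicate 2 and 4.76 without replicate 1. Both genes were far apart between the gates in every library. Gja5 (connexin 40) averaged 80.9 ± 17.5 CPM in gated cells and 0.924 ± 0.915 CPM in venular cells (log2 6.52, 5.74 without replicate 2 and 7.24 without replicate 3). Gkn3 had no UMI in 338 venular cells, so it was at least 31.6-fold higher in gated cells (18.4 CPM over all libraries, against 3 UMIs over the venular total). Cxcl12, a chemokine that holds CXCR4-bearing cells, had 1116, 868 and 1134 CPM in gated cells and 167, 244 and 241 CPM in venular cells (log2 2.17 ± 0.17). Efnb2, the arterial ephrin, averaged 219 ± 20.2 CPM in gated and 38.2 ± 17.8 CPM in venular cells (log2 2.46 ± 0.20). Fbln5, an elastic fibre protein, was the exception, at 204 ± 28.3 CPM in gated and 126 ± 5.79 CPM in venular cells (log2 0.61, adjusted p = 0.00900).

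Genes of the Notch pathway, which keeps arterial identity, were called higher for 9 of 16 and lower for Dll1 and Lfng. Without mixed cells 6 were higher and 1 lower. Over all genes tested, 7.75% were called higher and 3.31% lower with the mixed cells. The call of Dll1 (log2 -1.08) was lost without replicate 3 (log2 -0.83) and without the block. The ligands Dll4 (133 ± 26.2 CPM in gated and 32.0 ± 3.27 CPM in venular cells, log2 1.96 ± 0.14), Jag1 (119.5 ± 12.8 and 47.9 ± 3.03 CPM, log2 1.21 ± 0.13) and Jag2 (121 ± 8.28 and 31.0 ± 6.60 CPM, log2 1.92 ± 0.17) were higher. So was the endothelial receptor Notch4, at 121 ± 18.1 CPM in gated and 23.2 ± 6.39 CPM in venular cells (log2 2.27 ± 0.15). The target genes Hey1 (76.8 ± 21.0 and 7.96 ± 2.45 CPM, log2 3.13 ± 0.19) and Hes1 (163 ± 37.2 and 57.2 ± 5.17 CPM, log2 1.39 ± 0.13) were higher as well. Notch3, Hey2 and Heyl lost their calls without the mixed cells, and Notch3 is itself a mural marker. The arterial transcription factor Sox17 averaged 163 ± 31.9 CPM in gated cells, against 66.9 ± 11.1 CPM in venular cells (log2 1.20 ± 0.13).

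**Figure D3:**
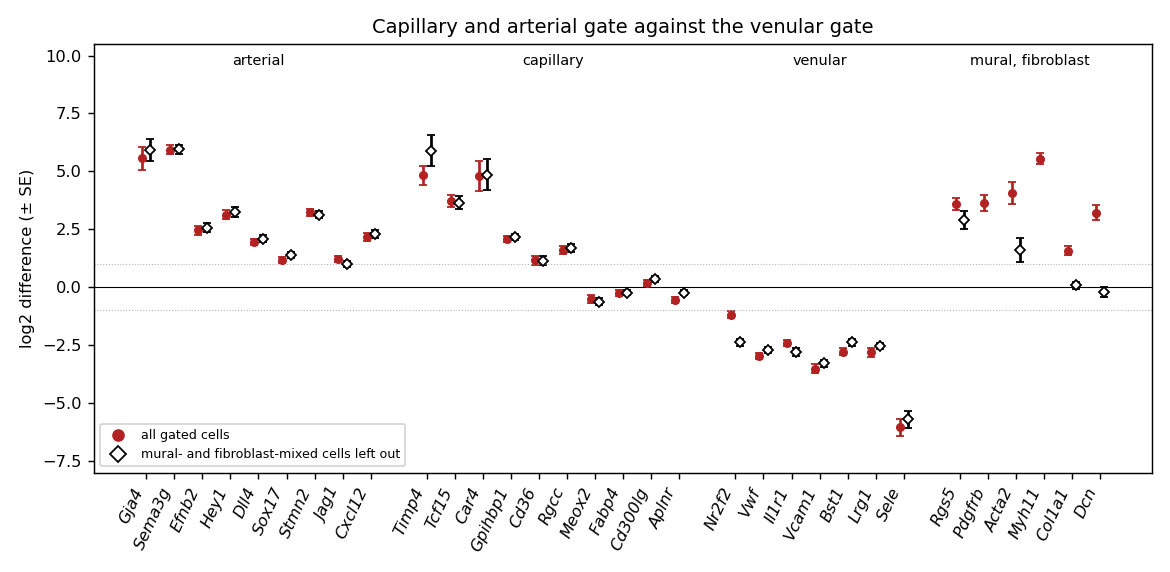
Log2 difference (± SE) of named arterial, capillary, venular, mural and fibroblast genes between the capillary and arterial gate and the venular gate, 3 libraries, for all gated cells (filled) and without mixed cells (open, where tested). The arterial genes shown lie above 0 and the venular genes below 0 with and without mixed cells. Col1a1, one of the genes that defined the mixed cells, lies at 1.58 with them and at 0.08 without them.

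Venular genes were lower for 7 of the 9 list members not used by the gates, beside 3.31% of all genes, and for 7 without mixed cells. Sele (E-selectin) had 11.2, 2.68 and 0 CPM in gated cells, against 336, 380.0 and 293 CPM in venular cells (log2 -6.04 ± 0.37, or -7.85 without replicate 1). Vwf (von Willebrand factor) averaged 104 ± 8.95 CPM in gated and 770.4 ± 116 CPM in venular cells (log2 -2.97 ± 0.14). Lrg1, a secreted modulator of TGF-beta signalling, had 267, 273 and 135 CPM in gated cells and 1493, 1443 and 1396 CPM in venular cells (log2 -2.81 ± 0.18). The groups did not overlap for any of these 3 genes. Nr2f2 (COUP-TFII), the transcription factor of venous identity, averaged 153 ± 47.0 CPM in gated and 317 ± 13.2 CPM in venular cells, a log2 difference of -1.19 ± 0.15 that became -2.37 without the mixed cells. Nr2f2 stood at 1414 CPM in the 8 cells led by Igfbp6 and at 382 and 339 CPM in the clusters led by mural genes.

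Adhesion molecules and chemokines moved in both directions, in a comparison where 7.75% of all genes tested were called higher and 3.31% lower. Of 12 adhesion genes tested, Sele, Vcam1, Icam1 and Glycam1 were lower, and Jam3 and Podxl higher, with the call of Jam3 lost without the mixed cells. Vcam1, the integrin ligand for lymphocytes and monocytes, averaged 31.7 ± 13.9 CPM in gated cells, against 339.5 ± 34.7 CPM in venular cells (log2 -3.51 ± 0.18). Icam1 averaged 82.4 ± 9.98 CPM in gated and 325 ± 79.1 CPM in venular cells (log2 -2.08 ± 0.16). Glycam1, a mucin-like ligand of L-selectin, had 3.06, 10.0 and 2.59 CPM in gated cells, against 268, 628 and 349 CPM in venular cells (log2 -6.38 ± 0.19). Each of these 3 genes was lower in all 3 libraries. Of 12 chemokine and cytokine genes tested, Cxcl12, Cx3cl1 and Il33 were higher and Cxcl9, Cxcl10 and Il6 lower, with the call of Il33 lost without the mixed cells. The interferon-induced chemokine Cxcl10 had 9.18, 12.1 and 7.76 CPM in gated cells and 112, 346 and 179 CPM in venular cells (log2 -4.44 ± 0.22). Cxcl9 was lower too (log2 -2.83 ± 0.38, -2.16 without replicate 2 and -3.60 without replicate 3). Il6 was called lower at log2 -1.06, with 85.6, 209 and 67.2 CPM in gated cells and 199, 264 and 196 CPM in venular cells, and lost its call without replicate 1 (log2 -0.94), without replicate 3 (log2 -0.84) and with no replicate block (adjusted p = 0.115). Cx3cl1 (fractalkine) was higher, at 33.2 ± 5.59 CPM in gated and 5.62 ± 2.20 CPM in venular cells. None of 12 antigen-presentation genes tested was called with edgeR. Among 16 interferon-response genes tested, Ifit2, Ifit3 and Rsad2 were higher and none was lower, while without mixed cells 3 were higher and Iigp1 lower (log2 -1.01, beside -0.89 with them). Rsad2 stood at 96.7 ± 21.1 CPM in gated cells against 8.80 ± 7.14 CPM in venular cells (log2 3.18 ± 0.37, or 4.001 without replicate 2).

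Of 14 secreted angiocrine genes tested, Pdgfb, Pdgfa, Igfbp3, Igfbp5, Tgfb2 and Dkk2 were higher and Igfbp4 and Ccn2 lower. The call of Igfbp5 was lost without the mixed cells. The background for the list counts of this paragraph was 7.75% of all genes called higher and 3.31% called lower. Pdgfb, the factor by which endothelium recruits pericytes, had 301, 235 and 259 CPM in gated cells, against 99.8, 114 and 91.5 CPM in venular cells (log2 1.28 ± 0.14). Igfbp3 averaged 466 ± 149.5 CPM in gated and 61.7 ± 24.1 CPM in venular cells (log2 2.83 ± 0.12). Of the VEGF list, 4 of 12 genes tested were higher and 1 lower, and without mixed cells 4 and 0. Vegfa, higher, and Nrp2, lower, lost their calls without those cells, so the 4 higher genes were not all the same. Vegfc, the lymphatic growth factor, averaged 76.1 ± 20.8 CPM in gated and 21.8 ± 3.17 CPM in venular cells (log2 1.67 ± 0.16). Of 18 BMP and TGF-beta genes tested, 6 were higher and Bmp4 lower, and without mixed cells 5 and 1. Bmp6 had 123, 40.2 and 115 CPM in gated cells and 19.3, 23.9 and 29.3 CPM in venular cells (log2 1.78 ± 0.29), and replicate 2 was again the lowest gated library. The BMP target Id1 averaged 244 ± 83.6 CPM in gated and 34.6 ± 7.61 CPM in venular cells (log2 2.65 ± 0.18). Bmp4 averaged 23.6 ± 5.68 CPM in gated and 96.3 ± 13.0 CPM in venular cells (log2 -2.07 ± 0.19). Of 8 flow-related genes tested, Klf2, Slc9a3r2 and Kcnj2 were higher and none was lower, and the call of Kcnj2 was lost without the mixed cells. Klf4, Nos3, Thbd, Piezo1 and S1pr1 were not called. Klf2, the factor induced by laminar flow, averaged 1405 ± 409 CPM in gated and 602 ± 128 CPM in venular cells (log2 1.11 ± 0.11). The surface proteins Ly6a (Sca-1) and Ly6c1 were higher, Ly6c1 at 989.5 ± 167 CPM in gated cells against 267 ± 23.4 CPM in venular cells (log2 1.79 ± 0.14). The junction protein Cldn5 averaged 473 ± 101 CPM in gated and 30.9 ± 14.6 CPM in venular cells (log2 3.79 ± 0.20).

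Mural and fibroblast genes moved with this comparison. All 8 mural genes and 5 of 6 fibroblast genes tested were called higher in the gated cells, beside 7.75% of all genes. Without the mixed cells 2 and 0 of them were. These same genes defined the mixed cells, so their fall without those cells follows from the definition and is no separate result. The 8 mural genes summed to 2117, 1060 and 2921 CPM in the gated cells and 119.5, 147.4 and 133.6 CPM in venular cells, and without mixed cells to 111, 73.3 and 117 CPM in gated and 34.6, 20.9 and 23.5 CPM in venular cells. Rgs5, the pericyte marker, still differed without mixed cells (log2 2.90, beside 3.59 with them), while Col1a1 had a log2 difference of 1.58 with them and 0.08 without. Sfrp5 and Tenm2, among the genes with the largest differences, had all their UMIs of the gated cells in the 8 cells led by Igfbp6. Crispld2 and Ctnna3 were also among the largest. None of these genes was tested without the mixed cells. Ctnna3 stood at 878 CPM in the cluster led by Acta2, whose cells were all mixed, and at 21.5 CPM in the other gated cells. Nebl, a nebulin-family actin-binding protein, was called with and without mixed cells: it had 89.7, 79.0 and 58.6 CPM in gated cells and no UMI in venular cells, at least 134-fold higher. Alpl (tissue-nonspecific alkaline phosphatase) was at least 98.8-fold higher on the same basis, with 53.5, 33.5 and 95.7 CPM in gated cells.

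Genes lower in the gated cells by the most included, besides Glycam1 and Sele, the adhesion molecule Cadm3 (0.563 ± 0.518 CPM in gated cells, 55.8 ± 4.96 CPM in venular cells) and Rasgef1a (0.744 ± 0.885 and 51.7 ± 9.87 CPM). The granulocyte growth factor Csf3 (2.93 ± 1.61 and 123 ± 45.6 CPM), the potassium channel Kcnh1 (3.22 ± 1.59 and 101 ± 9.83 CPM), the leukotriene receptor Cysltr1 (2.54 ± 1.61 and 73.0 ± 14.9 CPM) and the endothelial lipase Lipg (2.03 ± 1.19 and 50.5 ± 36.7 CPM) followed, in the same order of gates. Each was lower in 3 of 3 libraries, which the choice of these genes required.

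Against lymphatic cells, 1118 genes were called higher and 851 lower of 10519 tested (10.6% and 8.09%), and without mixed cells 991 and 985 of 9991 (9.92% and 9.86%). All 10 capillary genes were higher. Aplnr had 343, 394 and 317 CPM in gated cells and 10.3, 21.5 and 5.79 CPM in lymphatic cells (log2 4.75 ± 0.26). Fabp4 averaged 4129 ± 1301 CPM in gated and 293 ± 222 CPM in lymphatic cells (log2 4.04 ± 0.26). When the lymphatic gate required at least 5 UMIs of Prox1 and Mmrn1, the log2 difference was 6.67 for Fabp4, 6.48 for Aplnr and 6.68 for the VEGF receptor Flt1. Cd300lg was called at log2 1.02, and without replicate 1 (log2 0.91) or replicate 3 (log2 0.97) it was not. Flt1 averaged 1765 ± 374 CPM in gated and 77.2 ± 26.0 CPM in lymphatic cells (log2 4.53 ± 0.13). Flt4, the VEGF-C receptor, averaged 57.4 ± 11.2 CPM in gated and 1102 ± 47.1 CPM in lymphatic cells (log2 -4.27 ± 0.16), and Kdr, at 593 ± 74.0 and 471 ± 51.2 CPM, was not called. Cldn5 was lower here, at 473 ± 101 CPM in gated cells and 1320.0 ± 110.2 CPM in lymphatic cells (log2 -1.52 ± 0.15). The basement membrane list had 9 of 15 genes higher and none lower (8 without mixed cells, where Lamb2 lost its call), with Col4a1 at 2775 ± 603 CPM in gated and 821 ± 96.8 CPM in lymphatic cells (log2 1.72 ± 0.13). Ccl21a, the lymphatic chemokine that guides dendritic cells, averaged 1.19 ± 0.742 CPM in gated cells against 11270 ± 836 CPM in lymphatic cells, and Lyve1, the lymphatic hyaluronan receptor, 3.19 ± 1.92 against 3029 ± 131 CPM. Apba2 and Slc38a4 had no UMI in the gated cells and were at least 380-fold and 327-fold lower there than in lymphatic cells.

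Other genes with the largest differences above lymphatic cells were Nebl (75.8 ± 15.8 CPM in gated cells and 0.459 ± 0.795 CPM in lymphatic cells), Col13a1 (61.5 ± 23.1 and 0.982 ± 0.395 CPM), Mcf2l (131 ± 44.8 and 2.32 ± 1.58 CPM), the laminin Lama3 (101 ± 6.07 and 1.98 ± 1.78 CPM) and Ccdc85a (220.3 ± 105 and 4.24 ± 4.31 CPM). Below lymphatic cells were Slc45a3 (0.170 ± 0.294 CPM in gated and 260.4 ± 21.9 CPM in lymphatic cells), Dtx1 (0.170 ± 0.294 and 258 ± 10.2 CPM), Nts, the peptide neurotensin (1.99 ± 1.47 and 1133 ± 461 CPM), and the transcription factor Tbx1 (0.223 ± 0.387 and 144 ± 6.87 CPM). Chga (chromogranin A) had no UMI in lymphatic cells and 76.5, 150.0 and 2.59 CPM in gated cells, where its 377 UMIs lay in 15 cells, 119 of them in a single cell. Leaving out replicate 1 moved the log2 difference to 9.72 for Nebl, 6.68 for Ccdc85a, 6.68 for Lama3, -11.53 for Slc45a3 and -11.62 for Dtx1, beside 7.25, 5.73, 5.81, -9.82 and -9.77 with all 3 libraries. Leaving out replicate 2 moved it to 6.50 for Nebl, 4.98 for Lama3 and -10.70 for Tbx1, whose value with all 3 libraries was -8.92.

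Against all other filtered barcodes, 1710 genes were called higher and 2874 lower of 17880 tested (9.56% and 16.1%), at a median log2 difference of -0.17 over all genes, and without mixed cells 1544 and 3270 (8.72% and 18.5%). The general endothelial list had 23 of 24 tested genes higher. Flt1 had a log2 difference of 6.29 ± 0.20, and Tie1, the orphan receptor of the angiopoietin system, averaged 271 ± 28.9 CPM in gated cells against 3.00 ± 1.08 CPM in the other barcodes. The largest differences were those of Gja5, Sema3g, Sox17, Rbp7, Aqp7, Chga, Podxl and Adgrl4, with log2 values from 7.09 to 7.97, and Chga moved to 9.29 without replicate 1 and 5.42 without replicate 2. Nos3 (endothelial nitric oxide synthase) averaged 159 ± 25.6 CPM in gated cells and 1.21 ± 0.327 CPM in the other barcodes (log2 6.82 ± 0.18). Vegfa was lower, at 15.4 ± 3.96 CPM in gated cells and 72.5 ± 12.9 CPM in the other barcodes (log2 -2.49 ± 0.20, -1.63 against barcodes without a Ptprc UMI and -3.61 against those with one). All 7 macrophage, 4 neutrophil and 6 fibroblast genes tested were lower, and the gate itself left out any cell with a Ptprc or Pdgfra UMI. The neutrophil gene S100a8 had a log2 difference of -7.75 against all other barcodes and -1.45 against those without a Ptprc UMI, and Retnlg one of -8.29 against all other barcodes and -1.59 against those without a Ptprc UMI, where it was not called (adjusted p = 0.378). Of 8 mural genes 5 were higher, and without mixed cells none was higher and 7 were lower. These genes defined the mixed cells, so that change is no separate result.

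Within the gated cells, 133 of 299 had at least 2 UMIs of the arterial genes Gja5, Sema3g, Bmx and Gkn3. They were 44.2%, 49.4% and 40.2% of the gated cells in replicates 1, 2 and 3 (mean 44.6% ± 4.62, SD, n = 3), with overlapping intervals. The gate took more deeply read cells: arterial cells had a median of 15777 UMIs and the other 166 cells 8105.5. Among gated cells with at least 5000 UMIs the shares were 52.6%, 55.0% and 47.2%.

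Compared with the other gated cells, 161 genes were called higher in arterial cells and 134 lower of 8823 tested (1.82% and 1.52%), and 104 and 88 of 7934 without mixed cells (1.31% and 1.11%). Of 10 arterial list genes the gate did not use, 6 were higher, with or without mixed cells. Gja4 had 225, 211 and 219 CPM in arterial cells, against 24.4, 20.8 and 15.5 CPM in the other gated cells (log2 3.40 ± 0.21, adjusted p = 0.000132). Fbln5 had 374, 359 and 297 CPM in arterial cells, against 32.9, 43.0 and 23.2 CPM in the others (log2 3.38 ± 0.19), although it was not called between gated and venular cells. The groups were far apart in each library for both genes. Stmn2, a microtubule regulator, averaged 308 ± 91.7 CPM in arterial and 45.0 ± 20.3 CPM in the other gated cells (log2 2.78 ± 0.33). Of 16 Notch genes tested, Notch3, Jag1, Jag2 and Hey1 were called higher and none lower, beside 1.82% and 1.52% of all genes. Without mixed cells 3 were higher, and Notch3 lost its call. Jag1 (169.5 ± 28.5 CPM in arterial and 59.4 ± 3.16 CPM in the other gated cells, log2 1.497 ± 0.18), Jag2 (176 ± 18.6 and 55.6 ± 17.7 CPM, log2 1.68 ± 0.24) and Hey1 (112 ± 29.8 and 34.3 ± 16.0 CPM, log2 1.75 ± 0.21) were higher. Dll4, at 157 ± 48.4 and 105 ± 7.53 CPM, was not called, and neither were Notch1, Notch4 and Hes1. Sox17, Cxcl12 and Unc5b were not called either.

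Of 14 angiocrine genes tested, Edn1, Tgfb2, Dkk2 and Ltbp4 were higher in arterial cells and none was lower. Without mixed cells 6 were higher and Ccn2 lower. Over all genes tested in this comparison, 1.82% were called higher and 1.52% lower with the mixed cells. Vegfc, of the VEGF list, had 104, 95.8 and 157 CPM in arterial cells and 39.0, 11.1 and 21.3 CPM in the other gated cells (log2 2.28 ± 0.32, or 2.98 without replicate 1). Edn1, the vasoconstrictor endothelin, had 139, 224 and 155 CPM in arterial cells and 48.8, 61.0 and 9.68 CPM in the others (log2 2.11 ± 0.33). Neither gene overlapped between the groups. Ltbp4, which stores TGF-beta in elastic matrix, averaged 763 ± 58.2 CPM in arterial and 312 ± 75.3 CPM in the other gated cells (log2 1.32 ± 0.18). Igf2 (insulin-like growth factor 2) averaged 138 ± 57.1 CPM in arterial and 5.15 ± 5.62 CPM in the other gated cells, the largest difference among the higher genes named by size (log2 4.87 ± 0.34, or 5.68 without replicate 3). The calcium pump Atp2a3 (102 ± 14.6 and 5.94 ± 2.75 CPM), Cytl1, Nebl, Nrip2 and Apba1 followed. Nrip2 stood at 405 CPM in the cluster led by Acta2, whose cells were all mixed, and was not tested without mixed cells. Cytl1 rested on 13 gated cells with 194 UMIs and lost its call without replicate 2 (adjusted p = 0.0925) and with DESeq2 (adjusted p = 0.0542). Cldn5 averaged 649 ± 88.7 CPM in arterial cells and 260.2 ± 119.6 CPM in the others (log2 1.41 ± 0.23), a call lost without the block (adjusted p = 0.0771).

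Lower in arterial cells were 2 of 10 capillary genes and 2 of 9 tip genes, beside 1.52% of all genes. Without mixed cells 3 tip genes were lower, with Apln added. Timp4 had 112, 5.18 and 85.5 CPM in arterial cells, against 311, 2.77 and 277 CPM in the other gated cells (log2 -1.47 ± 0.25), and was lower in 2 of 3 libraries. Car4 had 21.9, 0 and 4.66 CPM in arterial cells, against 69.5, 0 and 81.3 CPM in the others (log2 -2.39 ± 0.50). With DESeq2 the adjusted p was 0.0606 for Timp4 and 0.0740 for Car4, and both calls were also lost without replicate 3 (log2 -1.30 and -1.64) and without the block (adjusted p = 0.605 and 0.428). Angpt2, the destabilising ligand of the Tie2 receptor, averaged 40.5 ± 23.5 CPM in arterial cells and 162 ± 70.8 CPM in the others (log2 -1.95 ± 0.35), and Nrp2, a VEGF-C co-receptor, 131 ± 16.1 and 305 ± 9.24 CPM (log2 -1.21 ± 0.16). Angpt2 had a log2 difference of -2.57 without replicate 1, where its call was lost (adjusted p = 0.0667), and -1.36 without replicate 2. Its call was also lost when the arterial gate took cells from 1 UMI on (log2 -1.43, adjusted p = 0.121). Gpihbp1 averaged 256 ± 32.1 CPM in arterial and 355 ± 118 CPM in the other gated cells and was not called. Aplnr, at 241 ± 20.9 and 483 ± 89.9 CPM, had a log2 difference of -0.98 (adjusted p = 0.0167), just short of a call. The largest lower values were those of Sfrp5, Tenm2, Cldn1, Igfbp6, Bnc2, Ogn, Kirrel3 and Dcn, in that order. Without mixed cells the first 6 were not tested, Kirrel3 (adjusted p = 0.0609) and Dcn (adjusted p = 0.254) lost their calls, and Sfrp5, Tenm2 and Cldn1 had UMIs in no gated cell outside the 8 cells led by Igfbp6.

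Mixed cells were 34 of the 133 arterial cells (25.6%), and the mural genes summed to 2936, 1809 and 3822 CPM in arterial cells, against 975.5, 258.0 and 1800 CPM in the others. Pdgfrb, Notch3, Myh11 and Acta2 of the 8 mural genes were called higher with the mixed cells, beside 1.82% of all genes. None of the 8 was called higher without those cells, which these same genes defined. The number of calls fell most without replicate 1: 10 genes were then called higher and 8 lower, and Vegfc, Gja4, Fbln5, Igf2, Atp2a3 and Nebl were the higher genes named here that kept their calls. Of those that lost them, the log2 differences were 3.08 for Stmn2, 1.92 for Jag2 and 2.52 for Edn1 without that library, beside 2.78, 1.68 and 2.11 with it. Without replicate 2 the counts were 91 and 117, and without the library as a block 84 and 56.

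**Figure D4:**
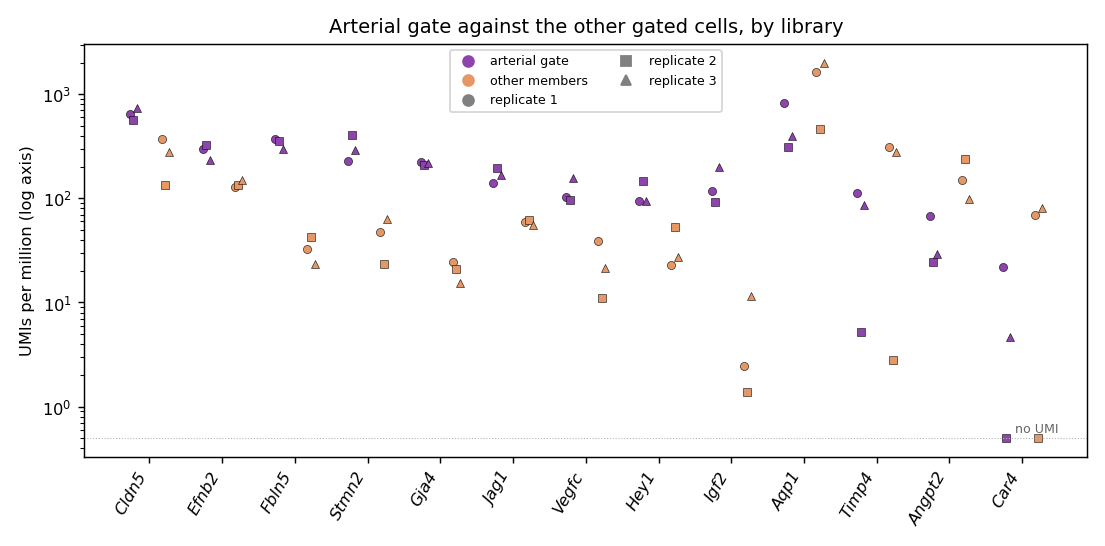
CPM (log axis) of 13 genes in the summed arterial cells (left of each pair) and the other gated cells, with 1 symbol per replicate and a library without a UMI drawn on the dotted line. Gja4 has 225, 211 and 219 CPM in arterial cells and 24.4, 20.8 and 15.5 CPM in the others, while Car4 lies on the line in replicate 2 on both sides.

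Promoters of 4 genes called between arterial and other gated cells are shown, Fbln5 and Jag1 called higher and Car4 and Timp4 called lower. As given above, the calls of Car4 and Timp4 were lost with DESeq2, without replicate 3 and without the block. Each stretch is the 250 bases before the start (RefSeq, GRCm38.p6), 5′ to 3′ on the gene's strand, with capitals for the letters of a searched motif read on either strand: TGGGAA of RBPJ, the DNA-binding partner of Notch, ACAATG of SOX factors, and CCGGAAG or CAGGAAG of ETS factors. Fbln5 lies at chr12:101819120-101819369 and Jag1 at chr2:137116521-137116770, both on the minus strand. Car4 lies at chr11:84957504-84957753 on the plus strand and Timp4 at chr6:115252206-115252455 on the minus strand.
Fbln5: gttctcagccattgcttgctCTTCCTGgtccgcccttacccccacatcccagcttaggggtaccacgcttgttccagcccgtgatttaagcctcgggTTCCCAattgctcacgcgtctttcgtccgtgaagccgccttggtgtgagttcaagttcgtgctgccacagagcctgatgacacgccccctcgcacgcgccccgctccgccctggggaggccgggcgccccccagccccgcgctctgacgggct
Jag1: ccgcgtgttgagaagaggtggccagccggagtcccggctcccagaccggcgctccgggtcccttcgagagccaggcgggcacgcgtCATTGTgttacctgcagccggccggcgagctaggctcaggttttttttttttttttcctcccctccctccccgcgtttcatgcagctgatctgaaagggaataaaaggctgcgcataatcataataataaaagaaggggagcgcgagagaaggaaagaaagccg
Car4: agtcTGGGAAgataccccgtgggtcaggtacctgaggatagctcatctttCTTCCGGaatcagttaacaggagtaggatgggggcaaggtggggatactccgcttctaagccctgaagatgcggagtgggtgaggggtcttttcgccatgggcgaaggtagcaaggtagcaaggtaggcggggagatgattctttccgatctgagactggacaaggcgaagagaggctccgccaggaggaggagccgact
Timp4: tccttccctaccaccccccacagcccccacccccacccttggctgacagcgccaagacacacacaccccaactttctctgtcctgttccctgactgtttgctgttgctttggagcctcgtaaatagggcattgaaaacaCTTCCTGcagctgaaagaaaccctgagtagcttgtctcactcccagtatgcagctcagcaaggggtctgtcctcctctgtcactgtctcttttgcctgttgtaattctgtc
These are matches of letters only. In the counts below, a list gene counted when any of its promoter entries held the motif. The share over all promoters counted single entries, so the shares are not on the same basis. Over windows that reach 50 bases past the start, TGGGAA was in 25.6% of all 32851 promoter entries, and in 4 of the 11 arterial list genes with an entry (36.4%), 3 of 5 capillary genes and 4 of 8 venular genes. ACAATG was in 12.6% of all entries and in 2 of 11 arterial, 1 of 5 capillary and 0 of 8 venular genes. CCGGAAG was in 8.86% and CAGGAAG in 13.3% of all entries, and in 0 and 1 of the 11 arterial, 1 and 1 of the 5 capillary and 0 and 3 of the 8 venular genes.

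Outside the arterial gate, 30 gated cells had at least 2 UMIs of the tip cell genes Apln and Esm1, 13, 11 and 6 in replicates 1, 2 and 3, too few in replicate 3 for the minimum of 10 cells set for a test. They were deeply read, with a median of 29393 UMIs against 6700 in the other non-arterial cells. Angpt2, which the gate did not use, had 278, 373 and 424 CPM in tip-gate cells, against 30.6, 61.1 and 26.1 CPM in those other cells. Cxcr4, the Cxcl12 receptor of sprouting cells, had 101, 181 and 74.1 CPM in tip-gate cells, against 7.07, 32.2 and 16.6 CPM in the others. The basement membrane nidogen Nid2 had 280.4, 332 and 222 CPM in tip-gate cells, against 40.1, 142 and 114 CPM in the others. For these 3 genes the groups did not overlap. Plvap was also higher in the tip-gate cells of each library, but its groups overlapped, at 1215, 1322 and 836 CPM in tip-gate cells and 446, 1184 and 422 CPM in the others. Levels of the remaining tip list genes, Pgf, Kcne3, Trp53i11 and Adm, are not given here. The share of all genes with such a difference was not counted. Car4 was at 20.2, 0 and 0 CPM in tip-gate cells and 116, 0 and 99.5 CPM in the others.

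Dividing cells were few. None of 9 cycling genes tested was called between gated and venular cells, beside 7.75% of all genes called higher and 3.31% called lower. With so few genes, that count does not set the list apart from those shares. The 10 cycling genes summed to 207, 412 and 265 CPM in gated cells and 303.5, 249 and 159 CPM in venular cells. At least 2 UMIs of Mki67 and Top2a were found in 5 of 120, 10 of 87 and 3 of 92 gated cells of replicates 1, 2 and 3. In all these were 18 of 299 gated cells, against 7 of 338 venular and 7 of 220 lymphatic cells. Replicate 2 had the most, and 19 of the 31 cells in the cluster led by Angpt2 and Mki67 came from it, with 8 and 4 from replicates 1 and 3. In that cluster Apln stood at 157, Esm1 at 141, Aplnr at 709, Top2a at 93.7 and Cd276 at 228 CPM, and 17 of its cells were in the tip gate. Its median of 31610 UMIs was the highest of the 10 clusters.

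The other clusters describe how the gated cells varied and carry no test, since their genes were used to form them. An arterial-like cluster of 27 cells, 26 of them in the arterial gate, was led by Cytl1, Gkn3 and Igf2 and had Eln (elastin) at 1398, Fbln5 at 1290.0, Vegfc at 549.5, Cldn5 at 1746 and Cxcl12 at 223 CPM. A further arterial-like cluster of 27 cells, 24 of them in the arterial gate and 14 from replicate 2, was led by Mctp1 and had Cxcl12 at 1526, Igfbp3 at 1172, Il6 at 364 and Fbln5 at 455 CPM, with no Gkn3. A cluster of 16 cells was led by Robo2, Rsad2 and Cecr2 and had Rsad2 at 459, Igtp at 177 and Iigp1, an interferon-induced GTPase, at 1738 CPM, but Iigp1 reached 2553 CPM in the capillary-like cluster. Mural genes led 2 clusters: 28 cells with Rgs5 at 5448 and Abcc9 at 455 CPM, 27 of them mixed, and 18 cells with Acta2 at 4403 and Myh11 at 2671 CPM, all mixed and 16 of them in the arterial gate. Their median doublet scores were 0.0644 and 0.0632, with 0.0200 to 0.0422 in the other 8 clusters. A cluster of 54 cells with a median of 2829 UMIs, led by Lyz2 and Tmsb10, was given no name.

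**Figure D5:**
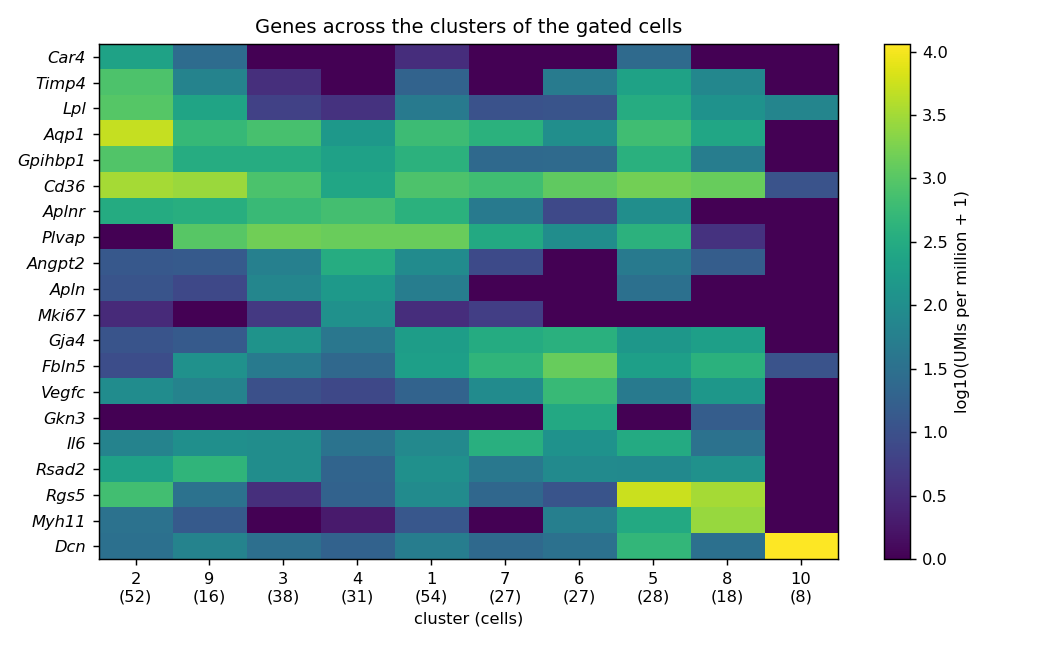
Level of 20 genes, as log10(CPM + 1), in the 10 clusters of the 299 gated cells, with the number of cells under each cluster number. Car4, Timp4 and Lpl are brightest in the capillary-like cluster of 52 cells, Gkn3 and Fbln5 in the arterial-like cluster of 27 cells led by Cytl1, Rgs5 and Myh11 in the clusters of 28 and 18 cells, and Dcn in the cluster of 8 cells.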

How the data were processed

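Single-cell RNA was captured with 10x Genomics 3′ v3.1 chemistry and sequenced on a NovaSeq, per the labels' protocols. The authors deposited raw UMI counts per gene and barcode, made with Cell Ranger 7.0.0 per the file headers and 6.1.2 per the submitters' processing notes, with no barcode under 500 UMIs; of genome build, annotation and intron setting the sources used here say nothing. The libraries held 136519688, 192348779 and 104482261 UMIs. Rows sharing a symbol (38 symbols) were summed. Counts of gated cells were summed per library and tested with edgeR 4.0.16 (quasi-likelihood, TMM scaling, filterByExpr, Benjamini-Hochberg) in R 4.3.3, with the library as a replicate block because each library gives a sum to both sides; at least 10 cells were required in each sum. Genes that set a gate were left out of counts of calls. The genes that defined the mixed cells were counted, unless they also set a gate. The tests were checked on simulated counts. Levels are CPM, UMIs per 1000000 UMIs of the summed cells. Cells were clustered with scanpy 1.11.5 (2000 variable genes, 15 components, Leiden resolution 1), and doublets were kept, with Scrublet removal, DESeq2 1.42.0, other gates and filters, and left-out libraries as alternatives. The members, lists and comparisons were chosen with earlier results of these data known. Genes named by size are, per direction, the 8 called genes with the largest log2 difference, at least 50 CPM on the higher side and the same direction in 3 of 3 libraries; 1 of them is not reported here.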

Additional observations from a re-analysis of the deposited data

How the results depend on the processing

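Against venular cells, leaving out the mixed cells lowered the higher calls to 392, beside 822 with them, and left 328 lower calls. The arterial comparison (161 higher and 134 lower) moved most: DESeq2 gave 105 and 75, no filter on low counts 291 and 322, no mixed cells 104 and 88, and leaving out 1 library gave 10 to 169 higher and 8 to 117 lower calls, lowest without replicate 1 (10 and 8) and with 91 higher without replicate 2. Of the genes named there, 27 lost their calls without replicate 1. The cause of these moves was not tested. Without the replicate block the arterial counts were 84 and 56, and the block is part of the design, since both sums of a pair share a library. Without it the other counts were 655 and 305 against venular, 992 and 828 against lymphatic and 1798 and 2889 against all other cells, within 1.5 times the counts with the block. The share of members (the gated cells) among filtered barcodes, 1.74%, lay between 1.335% and 2.07% under its alternatives. No named gene changed sign under any alternative run. The comparison of tip-gate cells was not run, nor were its alternatives, because replicate 3 held 6 such cells. Sums of 4615709 UMIs from 299 cells limit the genes of low level: Gkn3 rested on 10 cells and Cytl1 on 13.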
